A study of Mus musculus with 3 samples.

Results

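The genes described here carry out DNA replication and S phase: Mcm2, Mcm3, Mcm4, Mcm5, Mcm6, Mcm7, Cdc6, Cdt1, Cdc45, Gins2, Pcna, Rfc2, Rpa2, Prim1, Pola1, Fen1, Lig1, Rrm1, Rrm2, Tyms, Ung, Exo1, Rad51ap1, Clspn, Dtl, Uhrf1, Hells, Chaf1b, Slbp, E2f8 and Ccne2. They were taken from a list and matched by symbol, and all 31 were found among the 31053 genes of the deposited matrices. They were measured in single cells of the adult mouse cochlea, with and without doxycycline (Dox), an antibiotic that switches on tetracycline-controlled transgenes. With Dox, 26 of the 31 genes rose over all kept cells and 31 of 31 rose in epithelial-like cells. Of all genes tested there, 8.19% and 11.8% were called higher by edgeR. In glia-like cells 0 of 6 tested members were called and in macrophage-like cells 0 of 30. In these classes 6.90% and 1.71% of all genes tested were called in either direction by edgeR. Tests of whether the Dox effect differed between epithelial-like cells and either class called 0 members. These tests called 0.117% and 0.0618% of all genes tested in either direction. The count of 0 thus does not show that the classes responded alike.

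There were 2 Dox libraries, each from 4 pooled cochlear cultures kept for 4 days with Dox at 2 µg/ml, and 1 Control library from 4 pooled cultures that received sterile water instead. Mice of both groups were 4 to 6 weeks old and carried the same alleles: rtTA, a transcription factor that binds DNA when Dox is present, tet-on-Myc, and tet-on-NICD, the intracellular domain of Notch. The labels do not say which promoter drives rtTA, and there was no Dox library without the transgenes, so effects of Dox itself and of the transgenes cannot be told apart. After culture the sensory epithelium was dissected and dissociated with trypsin, and RNA was counted by 10x 3' sequencing as UMIs, the molecular tags that let each captured RNA be counted once. Cultures were pooled before capture, so p-values measure the spread between the libraries, which may be in part technical.

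Before S phase, the proteins Cdc6 and Cdt1 load the ring of Mcm2 to Mcm7 onto DNA, and Cdc45 and the GINS complex then turn this ring into an active helicase. Behind it, polymerase alpha and primase lay down primers, the clamp loader places the PCNA clamp that holds the copying polymerases, and Fen1 and Lig1 join the lagging strand. Ribonucleotide reductase and thymidylate synthase supply the nucleotides, and other factors repack the new DNA into chromatin. Many of these genes are switched on together by E2F transcription factors when a cell leaves quiescence. In the mature mouse cochlea, sensory epithelial cells are known to be quiescent and rarely enter the cell cycle.

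UMIs per library summed to 20309102 and 33385927 in Dox libraries 1 and 2 and to 5436731 in the Control library. Some barcodes occurred in several libraries: 101 in Dox 1 and Control, 92 in Dox 2 and Control and 68 in both Dox libraries, 125 different barcodes in all. In each case 1 library held at least 10 times the UMIs of the others, and the 193 small copies, of 500 to 1885 UMIs, were left out. Filtering left 595 and 925 Dox cells and 283 Control cells, with median depths of 20441 and 29877 UMIs in the Dox libraries and 12829 UMIs in Control. Little Malat1, a nuclear RNA whose loss marks damaged cells, was found in 34.1% and 17.5% of the Dox cells and 19.4% of the Control cells. Over all kept cells Notch1 was at 457 and 355 CPM with Dox and 34.1 CPM in Control, and Myc at 64.5 and 57.3 CPM with Dox and 33.3 CPM in Control. Both rose, by 3.57 (SE 0.24, adjusted p = 0.0133) and 0.87 (SE 0.17, adjusted p = 0.0442) on the log2 scale, in edgeR's quasi-likelihood test, where p is Benjamini-Hochberg adjusted here and in all that follows. Reads from the 3' end do not separate the transgene from the mouse's own copy. CPM are UMI counts scaled to a common library total, TMM-scaled for single genes and unscaled for sums over the members and for ratios and lower bounds of genes with 3 or fewer Control UMIs, and levels of different genes are not compared because the counts are not per length.

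Cells were clustered without the members, 58 other replication genes, 49 G2/M genes and the clustered histone genes. Of 18 clusters, 7 with at least 3 epithelial marker genes among their leading genes formed the epithelial-like class, which held 226 and 550 Dox cells and 56 Control cells. Its marker check rests on genes such as Epcam, Cldn3, Cldn7, Krt8 and Krt18. In Control, 23 of its cells were in a cluster led by genes that include the connexin gene Gjb2 and the nuclear receptor gene Rorb, 16 in one led by Lcn2, Vmo1 and Lrp2, 14 in one led by Epcam and Clu, and 3 in one led by Krt8 and Krt18. Another 3 of the 7 clusters, led by Stim2, by Epcam and Cldn7, and by Epyc, held Dox cells only, so the cells summed in the 2 groups were not of the same makeup. The glia-like class (38 and 50 Dox cells, 28 Control cells) was named from 3 glial markers, Cryab among them, and the macrophage-like class (45 and 24 Dox cells, 23 Control cells) from 5 markers, Tyrobp, Fcer1g, Lyz2 and Ctss among them. The macrophage-like name is uncertain for part of its cells, as given below. The tissue is labelled sensory epithelium, and 0 clusters had 3 hair cell markers among their leading genes.

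The promoters of 6 members are shown because these genes span the range of the Dox differences in epithelial-like cells: Rrm2, Dtl and Cdt1 had the largest among genes whose window could be printed, Lig1 the smallest, and Mcm6 and Mcm5 are helicase genes whose windows hold E2F letters. Each is the 250 bases before the RefSeq start (GRCm38.p6), 5' to 3' on the gene's own strand. Capitals mark matches to the E2F letters or to CCAAT. The starts used for Mcm6, Mcm5 and Lig1 were not found among the transcript starts checked. The Lig1 window ends before the annotated gene start at 13277283, so bases next to that start were not searched. In Rrm2, 13 bases of the window lie inside the gene. In the order printed, the windows are chr12:24708004-24708253 (plus strand), chr1:191575545-191575794 (minus), chr8:122567765-122568014 (plus), chr1:128359706-128359955 (minus), chr8:75109259-75109508 (plus) and chr7:13276925-13277174 (plus).
Rrm2: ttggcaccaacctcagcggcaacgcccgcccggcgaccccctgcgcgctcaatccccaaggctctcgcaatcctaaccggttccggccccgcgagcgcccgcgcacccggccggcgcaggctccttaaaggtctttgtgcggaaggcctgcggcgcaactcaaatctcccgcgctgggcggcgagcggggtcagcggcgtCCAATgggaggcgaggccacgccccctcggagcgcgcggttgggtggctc
Dtl: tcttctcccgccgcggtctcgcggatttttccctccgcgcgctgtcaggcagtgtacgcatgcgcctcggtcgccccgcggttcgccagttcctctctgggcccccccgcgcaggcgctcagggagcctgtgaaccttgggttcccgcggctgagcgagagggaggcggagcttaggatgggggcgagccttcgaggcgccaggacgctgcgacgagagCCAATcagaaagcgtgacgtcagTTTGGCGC
Cdt1: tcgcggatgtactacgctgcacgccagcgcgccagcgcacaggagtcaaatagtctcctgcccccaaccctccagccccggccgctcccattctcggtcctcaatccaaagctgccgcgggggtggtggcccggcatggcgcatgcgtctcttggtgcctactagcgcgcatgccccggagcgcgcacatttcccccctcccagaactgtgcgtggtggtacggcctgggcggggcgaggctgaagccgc
Mcm6: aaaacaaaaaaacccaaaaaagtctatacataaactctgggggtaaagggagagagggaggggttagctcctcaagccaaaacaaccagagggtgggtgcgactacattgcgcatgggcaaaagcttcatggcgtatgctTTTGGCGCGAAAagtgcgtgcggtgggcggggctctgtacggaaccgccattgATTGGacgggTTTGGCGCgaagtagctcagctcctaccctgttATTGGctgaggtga
Mcm5: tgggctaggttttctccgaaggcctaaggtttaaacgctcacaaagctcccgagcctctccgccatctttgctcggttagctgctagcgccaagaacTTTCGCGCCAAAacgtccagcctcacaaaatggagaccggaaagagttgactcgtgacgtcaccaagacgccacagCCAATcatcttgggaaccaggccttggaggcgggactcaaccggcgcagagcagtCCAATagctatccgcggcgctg
Lig1: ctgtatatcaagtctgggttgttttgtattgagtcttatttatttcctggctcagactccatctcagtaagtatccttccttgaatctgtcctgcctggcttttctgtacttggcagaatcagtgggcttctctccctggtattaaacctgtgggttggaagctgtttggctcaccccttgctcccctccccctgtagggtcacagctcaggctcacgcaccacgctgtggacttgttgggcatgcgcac

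RefSeq promoter entries were matched for 26 of the 31 members, and Mcm4, Gins2, Ccne2, Exo1 and Rfc2 are named only. The E2F letters searched, on both strands, were TTTGGCGC, TTTCCCGC, TTTGCCGC and TTTCGCGC, and 8 of the 26 windows (30.8%) held at least 1 of them: Cdc6, Dtl, Hells, Mcm5, Mcm6, Mcm7, Pola1 and Uhrf1. Among the other replication genes 11 of 47 windows (23.4%) held them, and among all 27025 promoters 2.16% did. CCAAT, the box bound by NF-Y, was in 18 of 26 member windows (69.2%), in 22 of 47 windows of the other replication genes (46.8%) and in 37.5% of all promoters. CACGTG, the E-box that MYC and other factors bind, was in the windows of Fen1 and Tyms, 7.69% of the members, against 6.86% of all promoters. Among the other replication genes 7 of 47 windows (14.9%) held it. In Mcm6 and Mcm5 overlapping E2F matches on opposite strands form one run of capitals. A match is a description of letters and not a binding site, and members with and without E2F letters both stand among the largest differences described next.

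Over all kept cells, 26 of 31 members rose with Dox and 0 fell, where 8.19% of the 15421 genes tested were called higher. The median log2 difference of the members was 1.96, against -0.01 over all genes tested, and the members ranged from 0.84 for Lig1 to 3.51 for Dtl. All 31 were higher in both Dox libraries than in Control. The share of all genes with this order is not given here, so the count is a description. The members not called were Rrm2, Chaf1b, E2f8, Lig1 and Rfc2, whose Benjamini-Hochberg adjusted p-values in edgeR were 0.0792, 0.0565, 0.0519, 0.0563 and 0.0504. With total count scaling the count was 21, the median of all genes was -0.31, and the split of all calls into higher and lower was 668 to 1672, against 1263 to 1122 with TMM scaling. With the barcode copies kept, 24 members were called here and 31 in epithelial-like cells. With every cell thinned to 1000 UMIs, 26 members could be tested and 6 were called. Shares of all genes called with copies kept or cells thinned are not given here. The unscaled sum over the members was 1308 and 1595 CPM in the Dox libraries and 526 CPM in Control, so the Dox mean was 2.76 times the Control value.

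In epithelial-like cells 31 of 31 members rose with Dox, where 11.8% of 13680 genes were called higher. The median log2 difference of the members was 2.27, against 0.07 over all genes tested. The count was 20 with all genes used to form the clusters, 18 without the low-count filter and 2 of 14 tested with cells thinned to 1000 UMIs. For these settings the shares of all genes called are not given here. Summed over the members, the level was 1519 (95% Poisson interval 1498 to 1541) and 1710 (1694 to 1726) CPM with Dox and 498 (466 to 532) CPM in Control, intervals that cover counting error only. The Control sum rests on 885 member UMIs, of which 3 of the 56 cells held 57.6%, against 10.97% and 3.94% in the top 3 cells of the Dox libraries. In bulk sums of this kind, fewer cells in S phase and less RNA per cell cannot be told apart.

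**Figure D1:**
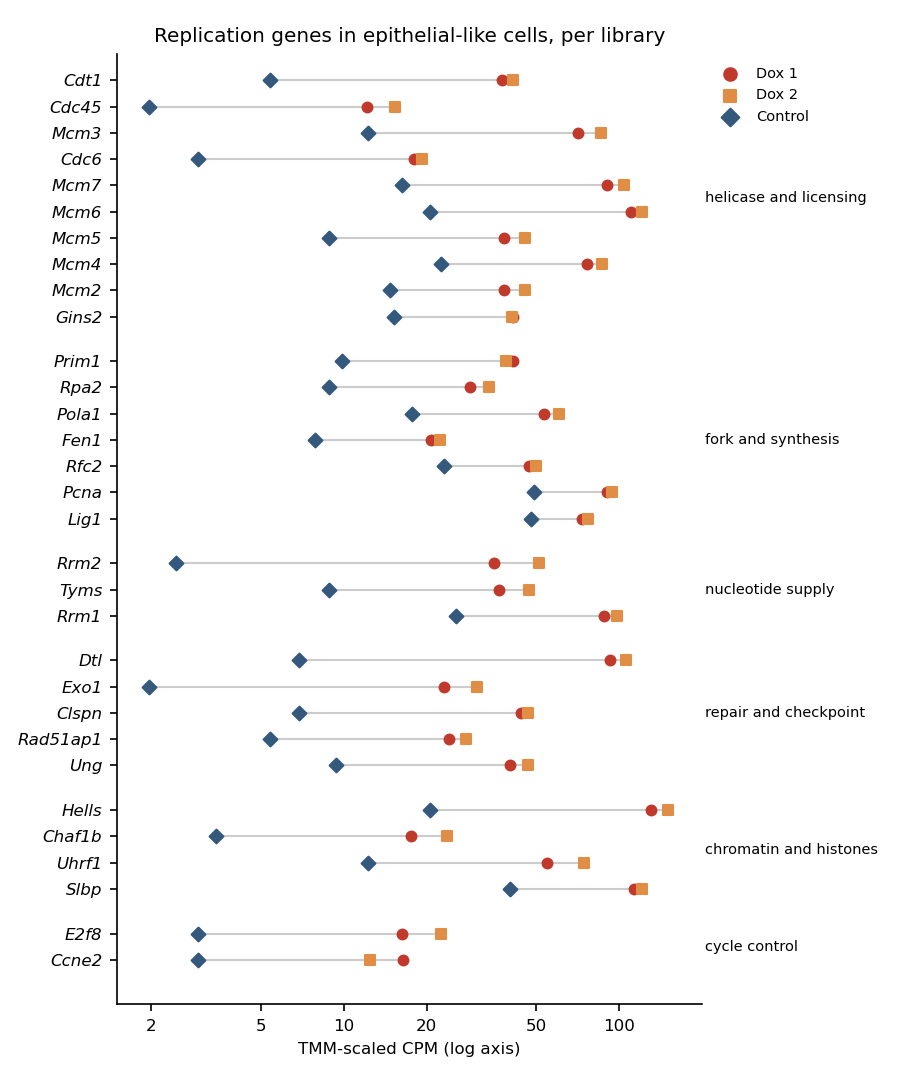
Level of each of the 31 members in epithelial-like cells, in TMM-scaled CPM on a log axis, with 1 point per library and the members ordered by role and by the size of the Dox difference. Both Dox points lie to the right of the Control point in every row, most widely for Rrm2, Dtl and Exo1 and most narrowly for Lig1 and Pcna. The share of all genes with this order is not given here.

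The helicase and its loading factors rose together, 10 of 10, with a median log2 difference of 2.54. Mcm6, a ring subunit, was at 110.4 and 121 CPM with Dox and 20.6 CPM in Control, a difference of 2.49 (SE 0.19, Benjamini-Hochberg adjusted p = 0.0053 in edgeR). Mcm7 was at 90.3 and 103.8 CPM with Dox and 16.2 CPM in Control, and Mcm3 at 71.1 and 85.8 CPM with Dox and 12.3 CPM in Control. Both Dox libraries were several times above Control for each of these subunits, and the 2 Dox values differed little. The remaining subunits had smaller differences, of 2.25 for Mcm5 (38.2 and 45.7 CPM with Dox, 8.84 CPM in Control), 1.85 for Mcm4 (76.5 and 86.4 CPM with Dox, 22.6 CPM in Control) and 1.51 for Mcm2 (38.0 and 45.5 CPM with Dox, 14.7 CPM in Control). Mcm7 overlaps Cops6 and Ap4m1 on the opposite strand, and since the sources used here do not state whether counting used strand, its UMIs are uncertain.

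Cdt1, which with Cdc6 loads the ring, was at 37.5 and 41.3 CPM with Dox and 5.40 CPM in Control, a log2 difference of 2.87 (SE 0.29). Cdc6 was at 17.98 and 19.2 CPM with Dox and 2.95 CPM in Control, on 6 Control UMIs, a difference of 2.66. Both Dox values of each loading factor lay above the single Control value. Cdc45, which activates the ring, was at 12.1 and 15.3 CPM with Dox and 1.97 CPM in Control (2.81, SE 0.55, on 4 Control UMIs), and Gins2, a GINS subunit, at 41.3 and 41.0 CPM with Dox and 15.2 CPM in Control (1.43, SE 0.22). Cdc45 overlaps Ufd1 and Gins2 overlaps Gse1 on the opposite strand, which leaves the same uncertainty. Over all kept cells the differences of these 10 genes ran from 1.40 for Mcm4 to 2.76 for Cdc6, and 10 of 10 were called.

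Members that work at the fork rose less on the log2 scale, 7 of 7 with a median of 1.45. Prim1, the primase subunit that makes the RNA primer, was at 41.2 and 38.9 CPM with Dox and 9.83 CPM in Control, a difference of 2.03 (SE 0.24). Pola1, the catalytic subunit of polymerase alpha, was at 53.2 and 60.5 CPM with Dox and 17.7 CPM in Control (1.69), and Rpa2, a subunit of the single-strand binding complex, at 28.8 and 33.6 CPM with Dox and 8.84 CPM in Control (1.82). These 3 stood well apart between the groups. Fen1, the flap nuclease, was at 20.7 and 22.3 CPM with Dox and 7.86 CPM in Control (1.45), and Rfc2, a clamp loader subunit, at 47.1 and 49.8 CPM with Dox and 23.1 CPM in Control (1.07). Fen1 overlaps Tmem258 and Rfc2 overlaps Lat2 on the opposite strand.

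Pcna, the sliding clamp, and Lig1, the ligase that seals Okazaki fragments, had the smallest differences of the list. Pcna was at 90.4 and 94.4 CPM with Dox and 49.1 CPM in Control, a log2 difference of 0.91 (SE 0.16, Benjamini-Hochberg adjusted p = 0.0225 in edgeR). Lig1 was at 73.5 and 77.2 CPM with Dox and 47.7 CPM in Control, a difference of 0.66 (SE 0.16, adjusted p = 0.0489, same test). Both genes were higher in 2 of 2 Dox libraries, and the Lig1 difference turned to -0.07 when all genes were used to form the clusters. The pseudogene copy Pcna-ps2 was at 2.65 and 2.12 CPM with Dox and 2.16 CPM in Control over all kept cells. In epithelial-like cells it was at 2.51 and 1.65 CPM with Dox and 0.98 CPM in Control, on 2 Control UMIs. Its unscaled ratio there, both Dox libraries together, was 1.60 (counting interval 0.428 to 13.5). How many reads matching both Pcna and that copy were lost in counting is not known from these values. Lig1 overlaps Zswim9 on the opposite strand.

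Genes of nucleotide supply were called in 3 of 3 cases. Rrm2, the regulatory subunit of ribonucleotide reductase, was at 35.0 and 51.3 CPM with Dox and 2.46 CPM in Control, and its log2 difference of 4.14 (SE 0.54, Benjamini-Hochberg adjusted p = 0.0127 in edgeR) rests on 5 Control UMIs. Rrm1, the large subunit of the same enzyme, was at 88.5 and 98.3 CPM with Dox and 25.5 CPM in Control (1.87, SE 0.19). Tyms, thymidylate synthase, was at 36.5 and 46.9 CPM with Dox and 8.84 CPM in Control (2.24, SE 0.33). In each gene both Dox libraries lay above Control, and Rrm2 differed most between the 2 Dox libraries. Over all kept cells Rrm2 missed the threshold, at 27.4 and 48.9 CPM with Dox and 11.3 CPM in Control.

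Repair and checkpoint members had the largest median log2 difference of the role groups with more than 3 genes, 2.72, and 5 of 5 were called. Dtl, which guides the ubiquitin ligase that removes Cdt1 during S phase, was at 92.3 and 106.2 CPM with Dox and 6.88 CPM in Control, a difference of 3.85 (SE 0.26, Benjamini-Hochberg adjusted p = 0.0052 in edgeR). Exo1, an exonuclease of mismatch and break repair, was at 23.1 and 30.4 CPM with Dox and 1.97 CPM in Control, a difference of 3.77 (SE 0.51) on 4 Control UMIs. Neither gene came near its Control level in a Dox library. Clspn, an adaptor of the checkpoint kinase Chk1, was at 44.1 and 46.7 CPM with Dox and 6.88 CPM in Control (2.72, SE 0.26). Rad51ap1, a factor of homologous recombination repair, was at 24.1 and 27.9 CPM with Dox and 5.40 CPM in Control (2.27), and Ung, which removes uracil from DNA, at 40.3 and 46.8 CPM with Dox and 9.33 CPM in Control (2.22).

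Chromatin and histone members were called in 4 of 4 cases, with a median log2 difference of 2.50. Hells, a chromatin remodeller needed for DNA methylation, was at 130.7 and 149.9 CPM with Dox and 20.6 CPM in Control, a difference of 2.77 (SE 0.20, Benjamini-Hochberg adjusted p = 0.0052 in edgeR). Uhrf1, which brings the maintenance DNA methyltransferase to new DNA, was at 54.8 and 74.8 CPM with Dox and 12.3 CPM in Control (2.40), and Chaf1b, a subunit of the histone chaperone CAF-1, at 17.6 and 23.7 CPM with Dox and 3.44 CPM in Control (2.59, on 7 Control UMIs). The Dox values of Uhrf1 and Chaf1b differed between the 2 libraries by more than those of most members, and both stayed above Control. Slbp, the protein that binds the stem-loop of histone messenger RNAs, was at 113.5 and 121 CPM with Dox and 40.3 CPM in Control (1.54).

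Both cycle control members were called in epithelial-like cells. Ccne2, cyclin E2, was at 16.5 and 12.4 CPM with Dox and 2.95 CPM in Control (2.27, SE 0.53), and E2f8, an E2F that represses its targets late in S phase, at 16.3 and 22.6 CPM with Dox and 2.95 CPM in Control (2.73, SE 0.53). Each Control value rests on 6 UMIs, and the Dox libraries lay above it for both genes. The UMIs of Ccne2 are uncertain because it overlaps Ints8 on the opposite strand.

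Of the 58 other replication genes 39 rose and 0 fell in epithelial-like cells, with a median log2 difference of 1.72, or 1.68 with genes of 0 Control UMIs at their lower bound. Dut, the dUTPase that keeps uracil out of DNA, was at 234 and 263 CPM with Dox and 29.97 CPM in Control (3.05). Cdca7, a partner of Hells and a known MYC target, was at 46.5 and 57.3 CPM with Dox and 1.47 CPM in Control, on 3 Control UMIs. The unscaled ratio of the UMIs of both Dox libraries together to Control was 29.6 (counting interval 10.1 to 144). Nasp, a histone chaperone, rose by 1.67, Tipin, a fork protection factor, by 2.30, Rfc5, a clamp loader subunit, by 2.72 and Atad2, a chromatin ATPase, by 1.87. Over all kept cells 27 of the 58 rose, led by Cdca7, Dut, Nasp, Tk1, Dbf4 and Topbp1 in order of p. Genes of the next phase moved too: 45 of 49 G2/M genes rose in epithelial-like cells, among them the proliferation marker Mki67 (265 and 280 CPM with Dox, 55.0 CPM in Control) and the topoisomerase Top2a (245 and 300.3 CPM with Dox, 74.2 CPM in Control). Cenpf and Tmpo rose by 1.00 and 1.11. The summed G2/M level was not higher with Dox in every epithelial-like cluster, as given below.

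Among cells outside the epithelial-like class, 369 and 375 Dox cells and 227 Control cells, 17 of 31 members rose and 0 fell, where 5.34% of 13880 genes were called higher. The groups differ in makeup here too: cluster 8 gave 97 of the Control cells and 0 Dox cells, cluster 2 gave 92 and 64 Dox cells and 3 Control cells, and cluster 0 gave 118 and 101 Dox cells and 13 Control cells. Cluster 0 was led by Gpx2, S100a1 and Fbxo2, which are also among the leading genes of epithelial-like clusters. The median log2 difference was 1.43, and the summed level was 934 and 1218 CPM with Dox and 540 CPM in Control. All 5 repair and checkpoint members were called, at 2.57 for Dtl, 2.22 for Exo1, 2.15 for Ung, 2.06 for Rad51ap1 and 1.71 for Clspn. So were 6 of 10 helicase and loading members, at 2.51 for Cdc6, 2.11 for Cdt1, 2.04 for Gins2, 1.89 for Mcm3, 1.43 for Mcm7 and 1.15 for Mcm6. The others called were Hells (2.22), Uhrf1 (2.03), Ccne2 (2.11), Tyms (1.36), Prim1 (1.61) and Pola1 (1.43). Rrm2 overlapped between the groups, at 14.2 and 39.7 CPM with Dox and 16.1 CPM in Control. The other members not called had differences of 0.45 for Slbp, 0.68 for Pcna, 0.73 for Lig1, 0.76 for Mcm4, 0.80 for Rfc2, 0.97 for Rrm1, 1.13 for Fen1, 1.19 for Mcm2, 1.21 for Mcm5, 1.26 for Chaf1b, 1.31 for E2f8, 1.42 for Rpa2 and 1.63 for Cdc45. The count was 1 with cells of little Malat1 left out, which were 41.2% and 30.4% of these Dox cells and 17.6% of the Control cells, 3 with the barcode copies kept and 0 without the low-count filter. It was 26 with all genes used to form the clusters. For these alternatives the shares of all genes called are not given here.

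The Dox effect was set side by side in the 2 classes and the difference tested as an interaction with the library as a block. By edgeR's quasi-likelihood test 0 of 31 members were called, though 8 had an unadjusted p of 0.05 or less, with no other tool run, where 0.162% of 14799 genes were called in either direction. The median difference was 0.73, larger in epithelial-like cells for 29 of 31 members. Mcm6 had a difference of 1.31 (SE 0.21, Benjamini-Hochberg adjusted p = 0.124 in edgeR), and Rrm2 one of 3.45. With all genes used to form the clusters the median turned to -0.65, and 1 member was called as less affected in epithelial-like cells, but that grouping moved cells led by epithelial genes out of the class. Its clusters of 136 and 84 cells, all from Dox libraries, had Epcam and Cldn7 among their leading genes. They were counted as not epithelial-like because only 2 epithelial markers were among their 25 leading genes. At resolution 2 the summed ratio of Dox to Control was 2.63 in epithelial-like and 2.93 in not epithelial-like cells. At the main resolution it was 3.24 and 1.99. Resolution 2 likewise counted clusters of 108 and 71 cells, all from Dox libraries, as not epithelial-like. Their only epithelial markers among the leading genes were Epcam and Cldn7. The order of the classes thus depended on the grouping, and the interaction was not fitted at resolution 2.

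**Figure D2:**
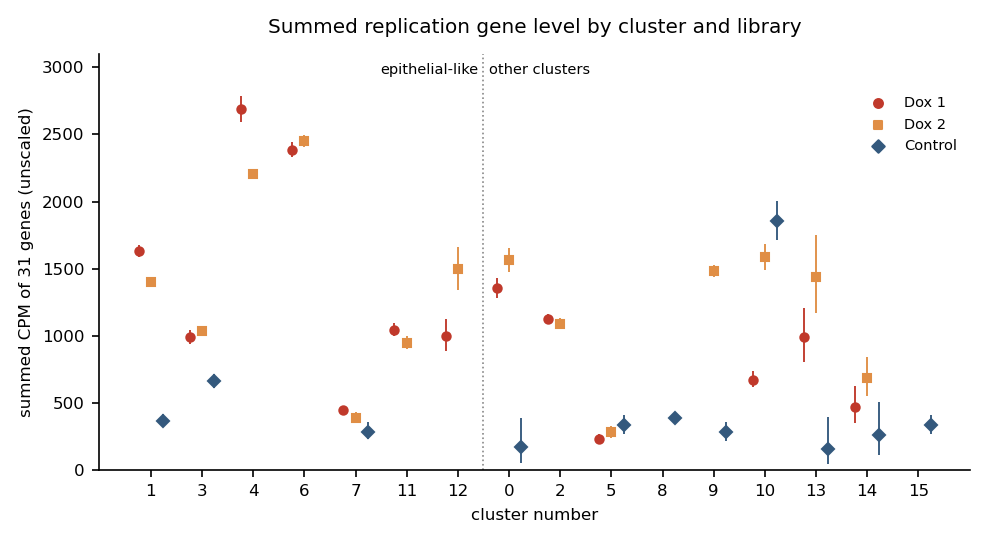
Unscaled CPM summed over the 31 members in each cluster and library with at least 10 cells, epithelial-like clusters left of the dotted line, with 95% Poisson intervals that cover counting error only. Clusters 4 and 6, which held Dox cells only, lie highest, and Dox points lie above the Control point in every cluster shown with both except clusters 5 and 10, where Control is highest.

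Within the epithelial-like class the summed level of the members varied from cluster to cluster. Cluster 6, led by Epcam and Cldn7, was at 2385 and 2451 CPM and cluster 4, led by Stim2 and Epcam, at 2687 and 2202 CPM in the Dox libraries, with 0 Control cells in either. The clusters that both groups shared were lower: cluster 1, led by Epcam and Clu, was at 1631 and 1399 CPM with Dox and 364 CPM in Control, and cluster 3, led by Lcn2, Vmo1 and Lrp2, at 990 and 1037 CPM with Dox and 661 CPM in Control. In these 2 clusters Dox stayed above Control, by more in the first. The summed G2/M genes did not keep this order in cluster 1, at 4727 and 3371 CPM with Dox and 4093 CPM in Control. In cluster 3 they were at 2130 and 2230 CPM with Dox and 514 CPM in Control. The top 3 cells held 62.0% of the Control member UMIs in cluster 1 and 72.3% in cluster 3. Cluster 11, led by Epyc, was at 1043 and 948 CPM in Dox cells. Outside the class, cluster 0, which is shallow, led by Gpx2 and S100a1 with little Malat1 in 90.7% and 94.1% of its Dox cells and 76.9% of its Control cells, was at 1352 and 1562 CPM with Dox and 167 CPM in 13 Control cells. Cluster 2, led by Cald1 and Itga1, was at 1125 and 1091 CPM with Dox and 594 CPM in 3 Control cells, and cluster 8, all Control, at 387 CPM. These levels are a description, since each rests on 1 sum per library.

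The cluster led by genes that include Gjb2 and Rorb, both known from cochlear supporting cells, held 57 and 26 Dox cells and 23 Control cells. Little Malat1 was found in 54.4% and 46.2% of its Dox cells and 52.2% of its Control cells. Median depths were 8986 and 22704 UMIs with Dox and 6701 UMIs in Control. Its summed members were at 449 and 388 CPM with Dox and 285 (228 to 353) CPM in Control. The Dox mean was 1.47 times Control, but 0.921 times with the barcode copies kept, and the top 3 cells held 60.1% and 66.3% of the member UMIs with Dox and 43.5% in Control. Of 17 members that could be tested 2 rose, where 5.76% of 8902 genes were called higher. Hells was at 38.4 and 29.1 CPM with Dox and 2.72 CPM in Control, on 1 Control UMI, and the unscaled ratio with both Dox libraries together was 9.29 (counting interval 1.63 to 371). Clspn was at 18.7 and 20.8 CPM with Dox and had 0 Control UMIs, at least 1.67-fold higher against a floor of 3 counts over the group. Dtl, also with 0 Control UMIs, was at 17.1 and 18.03 CPM with Dox and at least 1.499-fold higher, and was not called (Benjamini-Hochberg adjusted p = 0.0531 in edgeR). These Control values lie at or near the detection floor, while both Dox libraries had counts.

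The median log2 difference of the 17 members in that cluster was 0.72, also with genes of 0 Control UMIs at their bound. Differences above 1 that were not called were those of Ccne2 (2.81, on 1 Control UMI), Mcm6 (1.76, on 3 Control UMIs), Ung (1.12) and Slbp (1.04), and those below 0 were Tyms (-0.16), Rpa2 (-0.69) and Lig1 (-0.88). Mcm4, Mcm7, Pcna, Rrm1, Prim1 and Pola1 were between 0.50 and 0.91 and Rfc2 at 0.07. Pola1 overlapped between the groups, at 22.4 and 5.55 CPM with Dox and 10.9 CPM in Control. Members with at least 20 UMIs that did not pass the low-count filter were Mcm2 (11.9 and 7.45 unscaled CPM with Dox, 3.36 in Control), Mcm3 (11.9 and 4.97, 0 in Control), Gins2 (9.19 and 6.21, 3.36 in Control), Uhrf1 (8.73 and 6.21, 3.36 in Control), Fen1 (9.65 and 6.21, 3.36 in Control) and Cdt1 (10.6 and 7.45, 6.71 in Control). Another 8 members had under 20 UMIs each. DESeq2's Wald test called 0 of the 17, and with the copies kept or the strict cell filter edgeR called 0. Of 32 other replication genes tested 4 rose, Dut, Pold4, Topbp1 and Gmnn.

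In glia-like cells the members were at 233 and 278 CPM in sum with Dox and 333 (271 to 405) CPM in Control, and 6 of 31 had enough UMIs to be tested. At resolution 2, 13 of the Control cells formed a glia-like cluster with 0 Dox cells, and 15 Control cells clustered with 38 and 50 Dox cells. By edgeR's quasi-likelihood test 0 were called, though 2 had an unadjusted p of 0.05 or less, and DESeq2's Wald test called 0 with 0 at that level, where 6.90% of 7618 genes were called in either direction. The strict cell filter, and separately leaving out cells of little Malat1, gave 1 of 7 tested members called higher, which was Mcm7 in both, with log2 differences of 2.49 and 3.38. Without these filters Mcm7 was at 30.5 and 39.6 CPM with Dox and 6.19 CPM in Control, on 2 Control UMIs, and the unscaled ratio with both Dox libraries together was 4.68 (counting interval 1.22 to 39.9). Lig1 was at 6.92 and 9.44 CPM with Dox and 34.0 CPM in Control, a log2 difference of -2.05 (SE 0.85). The Dox libraries thus lay above Control for the helicase subunit and below it for the ligase, and neither passed the test. Differences of the others were -0.76 for Pcna, -0.57 for Rfc2, -0.42 for Slbp and 0.10 for Rrm1. Rrm2, E2f8 and Exo1 had 0 UMIs in this class in all 3 libraries, which together held 116 cells. Pola1 and Rpa2, with at least 20 UMIs but under the low-count filter, were at 12.3 and 16.3 and at 9.86 and 12.7 unscaled CPM with Dox, and both at 16.8 in Control.

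Both transgene-linked genes rose in the same glia-like cells, Notch1 at 662 and 374 CPM with Dox and 61.9 CPM in Control and Myc at 108 and 71.7 CPM with Dox and 27.8 CPM in Control (log2 difference 1.70, Benjamini-Hochberg adjusted p = 0.037 in edgeR). Of 25 other replication genes tested 0 rose and 1 fell, Pold4, a polymerase delta subunit, with a difference of -1.32. The difference of the Dox effect between epithelial-like and glia-like cells was called for 0 of the 28 members with any UMI in glia-like cells by edgeR's quasi-likelihood test, 8 at an unadjusted p of 0.05 or less, where 0.117% of 11121 genes were called in either direction. Lig1 had an interaction of 2.59 (SE 0.64), Cdt1 of 3.64 (SE 0.95) and Pcna of 1.52 (SE 0.46), each larger in epithelial-like cells. Fitted values went the other way for Mcm7 (-0.06, SE 0.87) and for Ung, Mcm5, Clspn, Ccne2, Dtl, Rad51ap1, Cdc6 and Chaf1b, each with 0 Control UMIs in glia-like cells and an SE of 4.73 or more. For Rrm2, E2f8 and Exo1, with 0 UMIs there, no difference could be estimated, and for the other members below the low-count filter the interaction rests on few counts.

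**Figure D3:**
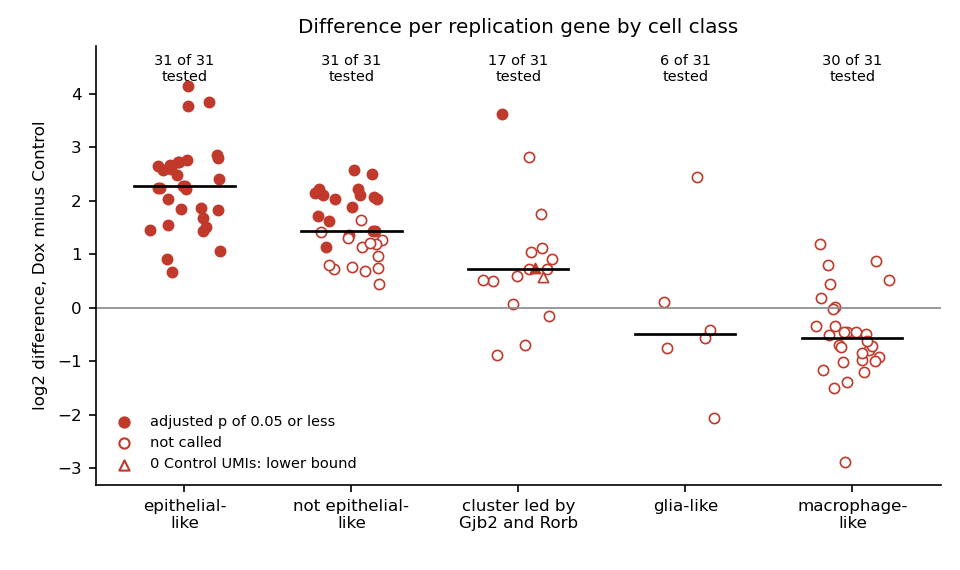
Log2 difference (Dox minus Control) of each tested member in 5 groups of cells, with filled points for an adjusted p of 0.05 or less, open points for the rest, triangles for lower bounds where Control had 0 UMIs, and a bar at the median. The points lie above 0 for all 31 members in epithelial-like and in not epithelial-like cells, and on both sides of 0 in the other 3 groups.

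Macrophage-like cells held many member UMIs in both groups, 673 and 1584 CPM in sum with Dox and 1855 (1717 to 2002) CPM in Control. The class was not of one makeup. At resolution 2 a cluster whose leading genes include Mmp8, Chil3 and S100a8 held 23 and 20 Dox cells and 21 Control cells. Another, led by C1qc, C1qb and C1qa, held 22 and 4 Dox cells and 2 Control cells. Mmp8 and S100a8 are on the neutrophil list of the markers used here. The cluster with these genes also had 4 macrophage markers and was left unnamed. The name macrophage-like is therefore uncertain for most Control cells of this class. The 2 Dox libraries differed more from each other than Dox 2 did from Control. Of 30 tested members 0 were called by edgeR's quasi-likelihood test, though 5 had an unadjusted p of 0.05 or less, and DESeq2's Wald test called 0 with 0 at that level, where 1.71% of 7740 genes were called in either direction. The median log2 difference was -0.57, or 0.04 without Dox 1 and -1.33 without Dox 2. A few cells held most of these UMIs: the top 3 had 63.9% and 59.9% in the Dox libraries and 90.3% in Control, where 1 cell held 64.3%. With cells thinned to 1000 UMIs the ratio of the summed level, Dox mean to Control, was 1.27, against 0.608 unthinned.

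Among helicase members in macrophage-like cells, Mcm6 was at 37.1 and 97.1 CPM with Dox and 175.2 CPM in Control (-1.39, SE 0.55, Benjamini-Hochberg adjusted p = 0.301 in edgeR). Rrm2 was at 15.1 and 56.1 CPM with Dox and 100.1 CPM in Control (-1.50), and Exo1 at 2.75 and 6.07 CPM with Dox and 33.4 CPM in Control (-2.88, SE 0.94). These 3 lay below Control in both Dox libraries. By contrast Cdc6 was at 16.5 and 34.9 CPM with Dox and 13.9 CPM in Control (0.87), and Ccne2 at 2.75 and 36.4 CPM with Dox and 8.34 CPM in Control, which overlap. The remaining differences were -1.19 for Mcm5, -1.17 for Lig1, -1.005 for Chaf1b, -0.99 for Pola1, -0.98 for Mcm2, -0.91 for Mcm7, -0.85 for Pcna, -0.78 for Mcm4, -0.73 for Prim1, -0.72 for Uhrf1, -0.70 for Clspn, -0.63 for Ung and -0.51 for E2f8. Dtl was at -0.49, Mcm3, Hells and Rad51ap1 at -0.45 each, Tyms and Fen1 at -0.34 each, Rrm1 at -0.03, Gins2 at 0.01, Slbp at 0.18, Rfc2 at 0.44, Rpa2 at 0.52 and Cdt1 at 0.80. Cdc45, with 16 UMIs, was not tested. Myc did not pass the test in these cells, with a difference of -0.65.

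The interaction between epithelial-like and macrophage-like cells was called for 0 of 31 members by edgeR's quasi-likelihood test, 23 at an unadjusted p of 0.05 or less, where 0.0618% of 11325 genes were called in either direction. Its median was 2.66, and the Dox effect was larger in epithelial-like cells for 31 of 31 members. These values rest on few Control cells. In macrophage-like Control cells 1 cell held 64.3% of the member UMIs and the top 3 held 90.3%. With cells thinned to 1000 UMIs the summed macrophage-like ratio of Dox to Control turned from 0.608 to 1.27. Exo1 had an interaction of 6.596 (SE 0.91), Rrm2 of 5.67 (SE 0.81) and Dtl of 4.25 (SE 0.62), and for each the Benjamini-Hochberg adjusted p in edgeR was 0.142. Since 1 residual degree of freedom stands behind these fits, a p above the threshold does not show that the classes responded alike.

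**Figure D4:**
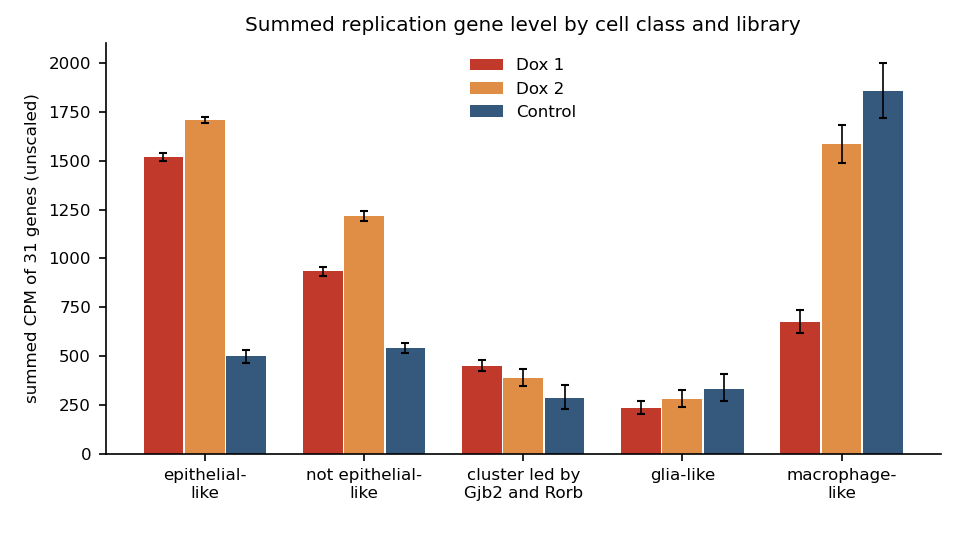
Unscaled CPM summed over the 31 members in 5 groups of cells, with 1 bar per library and 95% Poisson intervals that cover counting error only. Both Dox bars stand above Control in the first 3 groups and below it in glia-like and macrophage-like cells.

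Counted per cell, with each cell thinned to 2000 UMIs and shallower cells left out, 141 of 503 Dox 1 cells (28.0%) and 291 of 824 Dox 2 cells (35.3%) had at least 3 members detected, against 11 of 226 Control cells (4.87%). Thinning left out 92 and 101 Dox cells and 57 Control cells. Exact binomial 95% intervals, which cover counting error only, were 24.1% to 32.2% and 32.1% to 38.7% with Dox and 2.45% to 8.54% in Control, so the groups stood apart by more than counting error. In epithelial-like cells the shares were 73 of 209 (34.9%) and 200 of 503 (39.8%) with Dox and 1 of 47 (2.13%, interval 0.0539% to 11.3%) in Control. In cells outside that class they were 23.1% and 28.3% with Dox and 5.59% in Control. Without thinning, all kept cells gave 68.4% and 78.2% with Dox and 53.0% in Control, at the unequal depths given above.

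**Figure D5:**
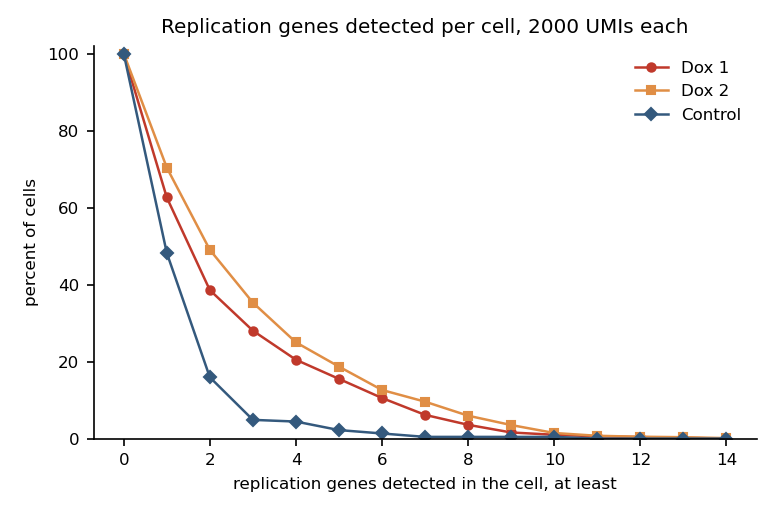
Percent of all kept cells with at least the given number of members detected, each cell thinned to 2000 UMIs, with 1 line per library. The Control line falls to 4.87% at 3 members, where Dox 1 and Dox 2 stand at 28.0% and 35.3%, and reaches 10 members at most, against 13 and 14.

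A cell may carry a UMI it did not make, and whether the member UMIs of glia-like cells are such background was not tested. Glia-like cells serve here only as a reference class. There 1 of 37 (2.70%) and 1 of 48 (2.08%) Dox cells and 0 of 25 Control cells, which allows a share of up to 12%, had at least 3 members, at median depths before thinning of 18240 and 10641.5 UMIs with Dox and 10705 UMIs in Control. Median depths of the epithelial-like cells were 52847 and 41375 UMIs with Dox and 32473 UMIs in Control. The cluster led by the neuron genes Map2 and Snap25 had 0 of 7 and 0 of 5 such cells with Dox and 1 of 4 in Control. The Control share in epithelial-like cells thus lay within the glia-like range, and the Dox shares lay above it. In macrophage-like cells the shares were 14.3% and 40.9% with Dox and 3 of 15 in Control, which overlap.

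Cells with at least 3 members were spread over classes. With Dox, 51.8% and 68.7% of them were epithelial-like, and in Control 1 of 11 was. Clusters 6 and 4 had the highest shares, 69.7% and 69.9% of Dox cells in cluster 6 and 72.2% and 56.9% in cluster 4. Cluster 1 had 44.2% and 33.6% with Dox and 0 of 14 in Control, and cluster 3 had 21.1% and 21.98% with Dox and 6.67% in Control. In the cluster led by genes that include Gjb2 and Rorb the shares were 2.17% and 4.17% with Dox and 0 of 16 in Control, close to the glia-like values. Many cells of this cluster had little Malat1, as given above.

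Single members differed in how many epithelial-like cells carried them. After thinning, Dtl was detected in 12.4% and 12.7% of Dox cells and in 0 of 47 Control cells, and Hells in 17.2% and 20.3% of Dox cells and 2.13% of Control cells. For Dtl, Hells, Clspn and Rrm2 the thinned share was 0 in glia-like cells of every library. Pcna was detected in 11.005% and 13.7% of Dox cells and 10.6% of Control cells, and Slbp in 14.4% and 16.5% of Dox cells and 19.1% of Control cells. For Slbp this order goes against its CPM, and no order is read from it. Without thinning, Dtl was found in 49.6% and 60.9% of Dox cells and 3.57% of Control cells, and Pcna in 68.6% and 68.4% of Dox cells and 50.0% of Control cells.

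Detection of the members went together with genes of the later cycle in each library. Among all kept cells with at least 3 members, Mki67 was detected in 29.8% and 36.1% with Dox and 27.3% in Control, and Top2a in 40.4% and 43.3% with Dox and 36.4% in Control. Among cells with 0 members, Mki67 was detected in 4.26% and 6.15% with Dox and 0% in Control, and Top2a in 2.13% and 5.74% with Dox and 1.71% in Control. The 11 Control cells behind the first pair of values limit their precision. Notch1 was detected in 43.3% and 40.9% of Dox cells with at least 3 members and in 45.2% and 39.3% of those with 0 members, and in Control in 18.2% and 7.69%.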

How the data were processed

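The authors deposited 1 matrix of UMI counts for each library, made with the 10x 3' kit version 3.1 per the labels' protocols. Per the submitters' processing notes the tools named are STAR, Seurat 3.2.2 and Cell Ranger 5.0 and the build is mm10 (GRCm38), while per the file headers the software version was 3.1.0. The use of introns or strand in counting was not stated there. The members and lists were chosen with earlier results of these data known.

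Barcodes under 200 genes or above 20% mitochondrial UMIs were left out, as were copies with 10 times fewer UMIs than the same barcode in another library. This left 1803 of 2395 barcodes. Scrublet marked 1, 0 and 1 cells in Dox 1, Dox 2 and Control, which is too few to count as a working call, so doublets were not removed. Cells were scaled to 10000 UMIs, log-transformed, and clustered on 2000 variable genes and 30 principal components with 15 neighbours by the Leiden method at resolution 1 (Python 3.11.15 with scanpy 1.11.5, igraph 0.11.9 and leidenalg 0.10.2). A cluster was named where at least 3 markers of a type were among its 25 leading genes, and a class was compared where every library had 20 cells or more. Cluster names were rebuilt here and may differ from those of the study.

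Counts were summed per library and class and scaled by TMM and filtered with filterByExpr. They were tested by the quasi-likelihood method of edgeR 4.0.16 under R 4.3.3, adjusted after Benjamini-Hochberg over all genes tested, and called at 0.05 or less. The design has 1 residual degree of freedom, from the 2 Dox libraries, and the single Control library is taken to vary as they do. The scripts were tested on simulated data whose changes were known. Intervals are 95% exact Poisson or Clopper-Pearson intervals, the floor for a count of 0 is 3 counts, and both cover counting error only. Members with at least 20 UMIs in a class are given by value and the rest by counts. Of the other replication genes, up to 6 called genes of smallest p per comparison were named, plus up to 4 G2/M genes by total UMIs. Promoters are from RefSeq (GRCm38.p6), and gene overlaps from GENCODE M21 (GRCm38). Alternatives were other scalings, no low-count filter, the legacy fit of edgeR, DESeq2 1.42.0, other cell filters, resolutions of 0.5 and 2, all genes in clustering, thinned cells and each Dox library left out. The fits with copies kept, the interactions with glia-like and macrophage-like cells and the cluster led by genes that include Gjb2 and Rorb were added after seeing the data.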

Additional observations from a re-analysis of the deposited data

Results flagged for a closer look

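Barcodes left out by the cell filter were not used in the comparisons, and their members summed to 517 (95% Poisson interval 441 to 603) and 609 (485 to 754) CPM in Dox 1 and Dox 2, above the 90.7 (46.9 to 158) CPM of the barcodes left out of Control. These values rest on 163 and 83 member UMIs with Dox and 12 in Control. In glia-like cells the Dox mean of the summed level was 0.768 times the Control value, against 3.24 times in epithelial-like cells, and both Dox sums lay below Control. The counting intervals of Dox 2 and Control overlapped, and 0 of 6 tested members were called. The macrophage-like ratio was 0.608, but 1.27 with cells thinned to 1000 UMIs and 0.363 without Dox 2, and 1 cell held 64.3% of the Control member UMIs. These differences of the sums were not tested, and the interaction fits per gene, which share the Control library with them, called 0 members. Those fits called 0.117% (glia-like) and 0.0618% (macrophage-like) of all genes tested in either direction.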

How the results depend on the processing

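The direction of the members' difference over all kept cells and in epithelial-like cells held in every alternative run except that of Lig1 below, while the counts of calls depended on filters and depth. The cause of each change was not tested unless stated. Apart from total count scaling, calls over all genes are not given for the alternatives. Their counts therefore do not show whether the members alone or all genes gained or lost calls. With cells thinned to 1000 UMIs, which leaves fewer genes to test, the members called higher were 6 over all kept cells, 2 in epithelial-like and 4 in not epithelial-like cells, and the other replication genes 7, 1 and 4, with 0 called in glia-like cells and 0 in the cluster led by genes that include Gjb2 and Rorb (Gjb2 Rorb cluster). The summed ratio of Dox to Control was then 3.39 over all kept cells, 4.37 in epithelial-like, 2.74 in not epithelial-like, 0.5003 in glia-like and 1.27 in macrophage-like cells and 1.71 in the Gjb2 Rorb cluster. With all genes in clustering the members called were 20 in epithelial-like and 26 in not epithelial-like cells, the other genes 19 in epithelial-like cells, the summed ratios 2.09 and 3.24, the interaction called 1 member and 1 other gene lower, and Lig1 was -0.072 in epithelial-like cells. Resolution 2 gave 21 other genes called in epithelial-like and 21 in not epithelial-like cells, with ratios of 2.63 and 2.93, and resolution 0.5 gave 8 in the Gjb2 Rorb cluster. Without the low-count filter the members called were 18 in epithelial-like cells, 0 in not epithelial-like cells (25 had an unadjusted p of 0.05 or less by edgeR) and 0 in the Gjb2 Rorb cluster, and the other genes 13, 0 and 2. Total count scaling gave 5 members in not epithelial-like cells, 28 in epithelial-like cells, and 15 other genes over all kept cells and 3 in not epithelial-like cells, with 2 lower in glia-like cells and 1 lower in the Gjb2 Rorb cluster. The median of all genes was then -0.23 in epithelial-like, -0.27 in not epithelial-like and -0.22 in glia-like cells and -0.47 in the Gjb2 Rorb cluster. The split of calls into higher and lower was then 1048 to 1968 against 1615 to 1060 in epithelial-like, 318 to 911 against 741 to 740 in not epithelial-like and 268 to 616 against 249 to 277 in glia-like cells, and 396 to 1316 against 513 to 267 in the Gjb2 Rorb cluster. With it Rrm1 turned to -0.14 in glia-like cells, Gins2 to -0.047 in macrophage-like cells, and Pcna to -0.015 and Rfc2 to -0.45 in the Gjb2 Rorb cluster. With copies kept, chosen after seeing the data, the members called were 3 in not epithelial-like cells and 0 in the Gjb2 Rorb cluster (ratio 0.921), the other genes 3 and 2, and Rrm1 turned to 0.0092 in macrophage-like cells. Without cells of little Malat1 the counts in not epithelial-like cells were 1 member and 3 other genes, and 1 member was called in glia-like cells. The strict filter called 1 member in glia-like cells, and 0 members and 2 other genes in the Gjb2 Rorb cluster (ratio 1.27). DESeq2's Wald test called 31 members over all kept cells, 27 in epithelial-like and 13 in not epithelial-like cells, 0 members and 1 other gene in the Gjb2 Rorb cluster, and 0 other genes in glia-like cells. The gap in the share of cells with at least 3 members, Dox mean minus Control, was 26.8 percentage points over all kept cells, 35.2 in epithelial-like and 20.2 in not epithelial-like cells. It was 14.9, 18.9 and 10.7 for at least 5 members, 15.7, 18.3 and 12.2 at 1000 UMIs, 20.3, 19.7 and 12.5 without thinning, 47.3 in epithelial-like cells at 5000 UMIs, and 14.7 in not epithelial-like cells without cells of little Malat1. Leaving out each Dox library in turn gives values with no test: the summed ratios ran from 2.49 to 3.03 over all kept cells, 3.05 to 3.43 in epithelial-like, 1.73 to 2.25 in not epithelial-like, 0.699 to 0.836 in glia-like and 0.363 to 0.854 in macrophage-like cells and 1.36 to 1.57 in the Gjb2 Rorb cluster. Not run, because a library held under 20 cells, were the strict filter, little Malat1 and resolution 2 in macrophage-like cells, and resolution 2 in the Gjb2 Rorb cluster. Little Malat1 was not run in the Gjb2 Rorb cluster because too few of its cells remained to match it. No paired analysis was possible because the Control label carries no replicate number and there is 1 Control library. The 1 Control library, with few member UMIs in the smaller classes, limits how firmly a difference near the threshold can be read.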
